A study of Mus musculus with 6 samples.

Results

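The G2/M and mitosis genes are 53 genes whose products take a cell from the end of DNA replication through chromosome segregation and cytokinesis. They were taken by gene symbol from a list that was proposed with earlier results of these data known. All 53 were among the 23420 symbols of the count tables and passed the filter on low counts, as did 15284 symbols in all. RNA came from tooth germs of C57BL/6 mouse embryos at E15.5, in 3 libraries labelled Smad7-/- and 3 labelled wild type. Smad7 codes for a SMAD family protein that dampens responses to TGF-beta and BMP ligands. The labels give neither the form of the allele nor any pooling of embryos. The labels do not say that the libraries came from separate embryos, so p-values measure the spread between these libraries only.

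Entry into mitosis is driven by cyclin-dependent kinase 1 bound to A-type and B-type cyclins. Polo and Aurora kinases then build the spindle, kinetochores attach chromosomes to it, and the anaphase-promoting complex ends the process by marking cyclins for destruction. Most of these genes are transcribed in a wave late in the cell cycle, under the MuvB complexes and FOXM1. In a tooth germ their transcripts are carried by the dividing cells of the epithelium and the surrounding mesenchyme, while the non-dividing enamel knot lacks them. In RNA from a whole tooth germ, fewer dividing cells and less transcript per dividing cell cannot be told apart.

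The libraries held 37591888 to 56575476 counts, and the 53 genes together took 0.351% to 0.499% of them. Smad7 itself had 80, 62 and 41 counts in the Smad7-/- libraries, against 1097, 934 and 859 in wild type, so each library matched its label. The tooth markers were present, with dental epithelium genes summing to 8418 to 10066 CPM (counts scaled to a common library size) in Smad7-/- and 9840 to 10865 CPM in wild type. Dental mesenchyme markers summed to 1153 to 1247 CPM in Smad7-/- and 844 to 1091 CPM in wild type. The libraries also separated, but not by genotype, on the first principal component of genes outside the cell-cycle lists, which held 33.4% of the variance. Smad7-/- libraries 1 and 2 lay at -32.0 and -14.7 on it and Smad7-/- library 3 at 14.6, against -17.3, 24.1 and 25.3 for wild-type libraries 1 to 3. The labels give no date or batch that matches this separation. Smad7-/- library 3 and wild-type library 1 carried Xist RNA and the other 4 libraries the Y-linked gene Ddx3y.

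Promoters of 4 members are shown, Ccnb2, Plk1 and Cdk1 picked by name and Mki67 for the widest range of log2 CPM over the libraries. Marked in them are the letters of motifs described in late cell-cycle promoters, which other promoters hold too. The first is the CHR element, TTTGAA or TTTAAA, bound by MuvB complexes, and the second is the CCAAT box, bound by NF-Y. Each window runs from 250 bases before the annotated start to 50 bases after it, 5′ to 3′ on the gene's own strand, from RefSeq on GRCm38.p6, the assembly also called mm10. Capitals mark every CHR element and CCAAT box on either strand, so a CCAAT box on the opposite strand reads ATTGG. Cdk1, the kinase of mitotic entry, lies at chr10:69352863-69353162 (minus strand), Ccnb2, a B-type cyclin, at chr9:70421505-70421804 (minus strand), Plk1, the polo kinase, at chr7:122159185-122159484 (plus strand), and Mki67, which coats mitotic chromosomes, at chr7:135716330-135716629 (minus strand).
Cdk1: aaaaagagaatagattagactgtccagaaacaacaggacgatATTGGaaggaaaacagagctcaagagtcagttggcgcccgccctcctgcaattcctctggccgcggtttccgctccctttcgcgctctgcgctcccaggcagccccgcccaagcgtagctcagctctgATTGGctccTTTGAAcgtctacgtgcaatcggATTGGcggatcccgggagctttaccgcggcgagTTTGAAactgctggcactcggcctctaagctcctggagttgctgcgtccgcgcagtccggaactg
Ccnb2: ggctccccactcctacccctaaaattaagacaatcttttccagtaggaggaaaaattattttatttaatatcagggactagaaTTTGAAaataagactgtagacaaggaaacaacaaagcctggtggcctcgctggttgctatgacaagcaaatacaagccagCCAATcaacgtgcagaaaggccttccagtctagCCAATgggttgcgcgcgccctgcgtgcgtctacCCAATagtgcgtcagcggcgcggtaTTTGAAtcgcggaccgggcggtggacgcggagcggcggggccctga
Plk1: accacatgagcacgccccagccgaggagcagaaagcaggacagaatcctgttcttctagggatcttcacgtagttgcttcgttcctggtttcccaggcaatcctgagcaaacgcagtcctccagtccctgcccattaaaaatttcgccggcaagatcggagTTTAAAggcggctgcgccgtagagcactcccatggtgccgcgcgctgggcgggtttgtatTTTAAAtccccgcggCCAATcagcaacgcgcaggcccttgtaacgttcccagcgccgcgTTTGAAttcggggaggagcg
Mki67: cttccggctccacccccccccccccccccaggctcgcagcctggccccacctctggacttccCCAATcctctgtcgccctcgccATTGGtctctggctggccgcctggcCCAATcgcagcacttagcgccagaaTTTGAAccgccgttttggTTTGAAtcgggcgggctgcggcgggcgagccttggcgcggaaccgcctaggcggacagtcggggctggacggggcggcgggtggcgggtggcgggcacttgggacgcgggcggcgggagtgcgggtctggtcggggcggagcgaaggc
Counted from the annotated start, the CHR elements of Cdk1 began at positions -71 and -15, with reverse CCAAT boxes at -208, -80 and -48. Ccnb2 had CCAAT boxes at -87, -54 and -21 and CHR elements at -167 and 5, while Plk1 had CHR elements at -89, -29 and 31 and a CCAAT box at -14. In Mki67 the CHR elements lay at -116 and -98, downstream of 3 CCAAT boxes at -188, -166 and -141, the second of them on the opposite strand.

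RefSeq promoters were matched for 46 of the 53 genes, 4 of them with 2 starts, which gave 50 windows. A CHR element on either strand occurred in 40 of 50 windows (80%), against 19.6% of the 14249 windows of genes that passed the filter on low counts. The TTTGAA form alone occurred in 68% of member windows and in 12% of the windows of genes that passed the filter. A CCAAT box was found in 76% of member windows and in 37.1% of those of genes that passed the filter. For 2 or more boxes the shares were 58% of member windows and 13.2% of the windows of genes that passed the filter. Both motifs together occurred in 64% of member windows and in 7.63% of those of genes that passed the filter. Of 69 windows of other mitosis genes 59.4% held a CHR element, as did 25% of 36 windows of S phase genes. A CCAAT box occurred in 62.3% of the windows of other mitosis genes and in 69.4% of those of S phase genes. The shares among all 32851 windows were 27.6% for the CHR element and 37.4% for the CCAAT box. By gene, 37 of the 46 had a CHR element in a window. The windows of Nuf2, Nek2, Nusap1, Bub1, Psrc1, Tacc3, Gas2l3, G2e3 and Cks2 had none, and those of Nuf2, Nusap1, Tacc3 and G2e3 had no CCAAT box either. These matches describe letters in a window and were not tested as sites.

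**Figure D1:**
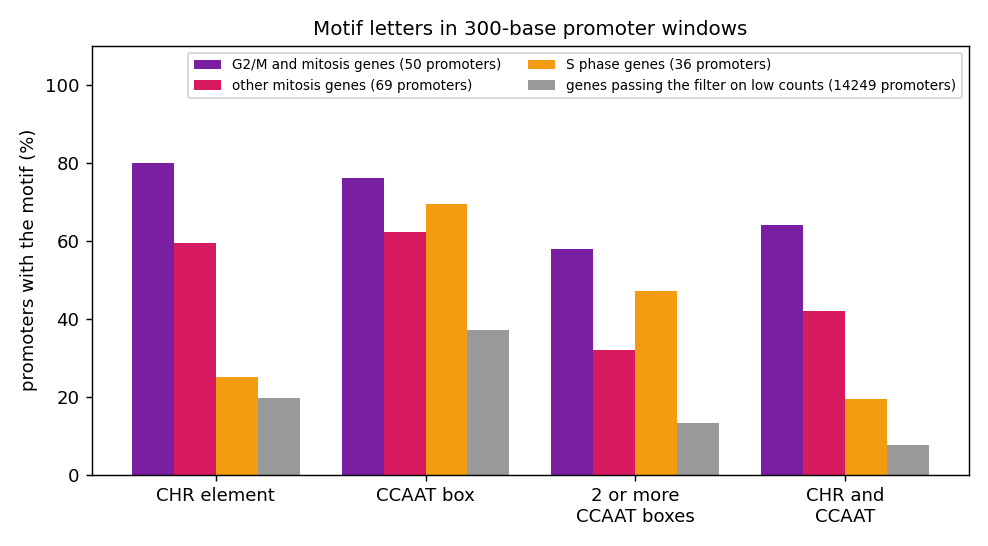
Share of 300-base promoter windows (y axis, percent) that hold a CHR element, a CCAAT box, 2 or more CCAAT boxes, or both motifs, for 50 windows of G2/M and mitosis genes, 69 of other mitosis genes, 36 of S phase genes and 14249 of genes that passed the filter on low counts. The CHR element stands at 80% and 59.4% in the 2 mitotic sets, and at 25% and 19.6% in the others.

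No member passed the test between genotypes. None of the 53 passed an adjusted p of 0.05 in edgeR's quasi-likelihood test in either direction, where 0.0262% of the tested genes did (0.0131% higher and 0.0131% lower). None reached an unadjusted p under 0.05, where 5.14% of tested genes did, 3.26% higher and 1.88% lower. DESeq2 and limma-voom also called 0 members (DESeq2 called 0.351% of the genes it tested, and limma-voom 4 of 15284). The fitted log2 change was below 0 for 52 of 53 members, against 50.9% of all tested genes, with a median of -0.15 for the members and -0.0028 for all genes. These changes were small. Of the 53, 51 lay between -0.25 and 0, none was over 2 SE in size, and the median SE was 0.14. The smallest unadjusted p was 0.101, for Ckap5, a microtubule polymerase, whose adjusted p was 0.999. Group ranges overlapped for 52 members, and for 1 they did not, against 8.88% of tested genes without overlap (4.97% higher and 3.91% lower in Smad7-/-).

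The size of the median depended on which libraries entered. Smad7-/- libraries 1 and 2 were low and Smad7-/- library 3 was high. For 41 members (77.4%) both of the first libraries lay below all 3 wild-type libraries, as they did for 12.5% of all tested genes. For 37 members (69.8%) Smad7-/- library 3 lay above all 3 wild-type libraries, as it did for 23.1% of tested genes. Both held at once for 30 members (56.6%), against 2.81% of tested genes. For 32 members (60.4%) the 3 lowest libraries were Smad7-/- libraries 1 and 2 and wild-type library 1, against 13.7% of tested genes. Those libraries were also the negative ones on the first principal component. For 17 members (32.1%) wild-type library 3 was among the 3 lowest in place of wild-type library 1, against 5.55% of tested genes. These patterns were taken from the members' own values, in libraries that all members share, and the gaps to all genes were not tested. Without Smad7-/- library 3 the median log2 change was -0.31, and 36 members had an unadjusted p under 0.05, all lower, against 5.01% of tested genes lower at that level. After adjustment 0 members passed in edgeR, where 0.0453% of tested genes did, and the smallest adjusted p of a member was 0.222. This fit dropped the Smad7-/- library in which the members were high, and the members share the libraries that remain. In the main fit, and with any other library left out, 0 members had an unadjusted p under 0.05 in edgeR. Without Smad7-/- library 1, Smad7-/- library 2 or wild-type library 2 the median was -0.08, -0.07 or -0.09. With the first principal component of genes outside the cell-cycle lists as a covariate it was -0.03, and 34 of 53 members were below 0.

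**Figure D2:**
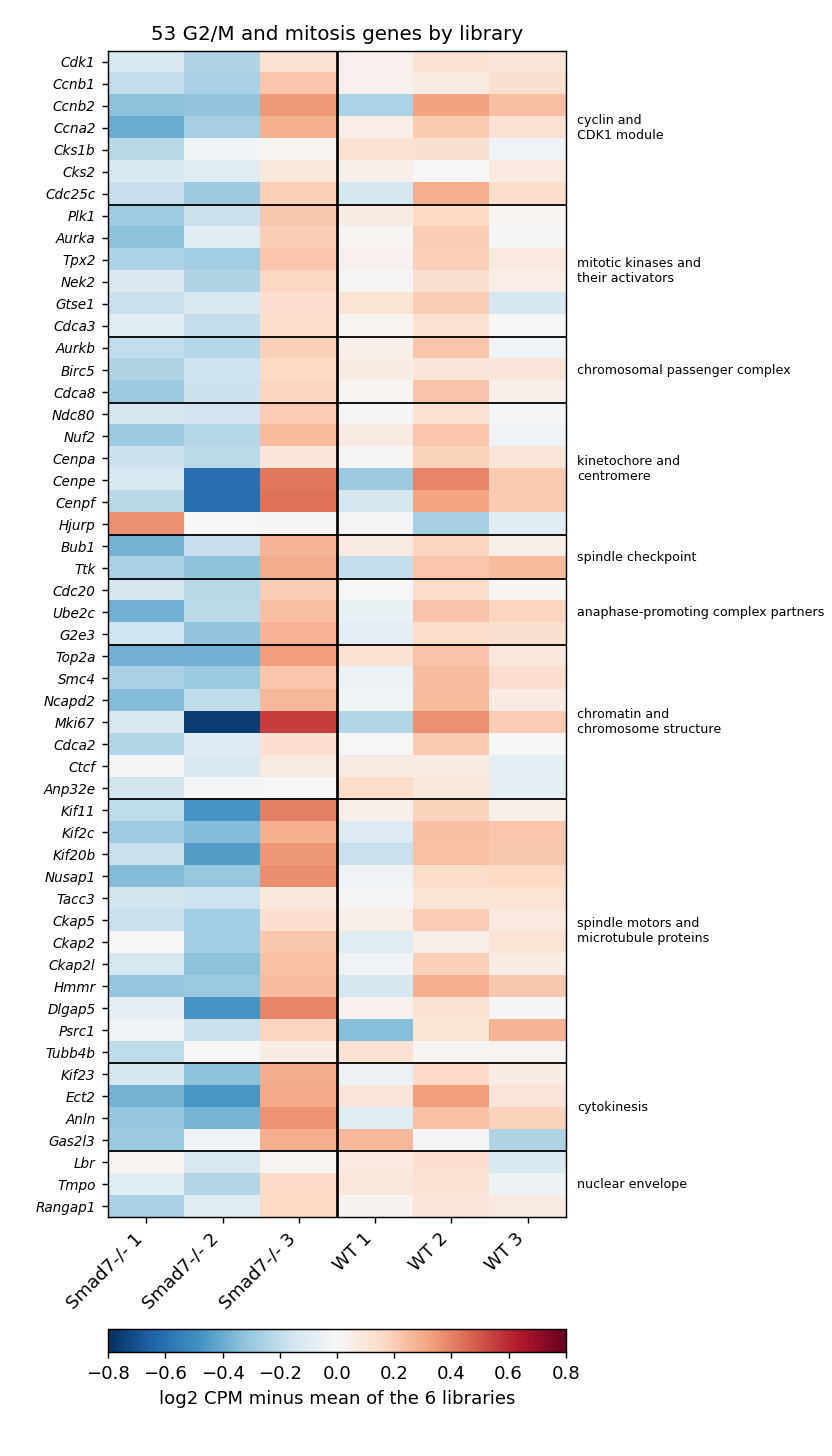
Deviation of each gene's log2 CPM from its mean over the 6 libraries (colour, blue low and red high) for the 53 genes (rows, by role) in the 3 Smad7-/- and 3 wild-type (WT) libraries (columns). Smad7-/- libraries 1 and 2 are blue in most rows and Smad7-/- library 3 is red, with its highest value of the 6 libraries in 36 rows.

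None of the 7 cyclin and CDK1 genes passed the test, where 0.0262% of all tested genes did. Cdk1 had 83.6, 77.2 and 99.3 CPM in the Smad7-/- libraries, against 93.3, 98.9 and 97.6 CPM in wild type (log2 change -0.16 ± 0.10 SE; edgeR adjusted p = 0.999). Smad7-/- libraries 1 and 2 lay below every wild-type library and Smad7-/- library 3 was the highest of all 6, so the groups overlapped. Ccnb1, the main mitotic B-type cyclin, had 78.4, 75.1 and 105 CPM in Smad7-/-, against 92.2, 94.3 and 98.5 CPM in wild type (-0.14 ± 0.13). Ccnb2 stood at 36.8, 37.2 and 58.7 CPM in Smad7-/- and at 38.8, 57.8 and 54.6 CPM in wild type (-0.19 ± 0.21). Here wild-type library 1 was low too, beside Smad7-/- libraries 1 and 2. Ccna2, the A-type cyclin that acts from S phase into early mitosis, had 74.8, 81.9 and 119.8 CPM in Smad7-/- and 101.8, 113 and 106 CPM in wild type, one of the 4 lowest fitted changes (-0.22 ± 0.16). The small CDK1-binding subunits varied less. Cks2 had 27.5, 27.9 and 31.9 CPM in Smad7-/- and 30.7, 29.99 and 31.5 CPM in wild type (-0.08 ± 0.10), a highest library only 1.16 times the lowest. Cks1b averaged 53.9 ± 4.61 CPM in Smad7-/- and 59.8 ± 3.69 CPM in wild type (SD, n = 3), and Cdc25c, the phosphatase that activates CDK1, averaged 19.3 ± 3.50 CPM in Smad7-/- and 21.97 ± 3.23 CPM in wild type. All 7 genes of the group were below 0 in the fit, with a median of -0.16.

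**Figure D3:**
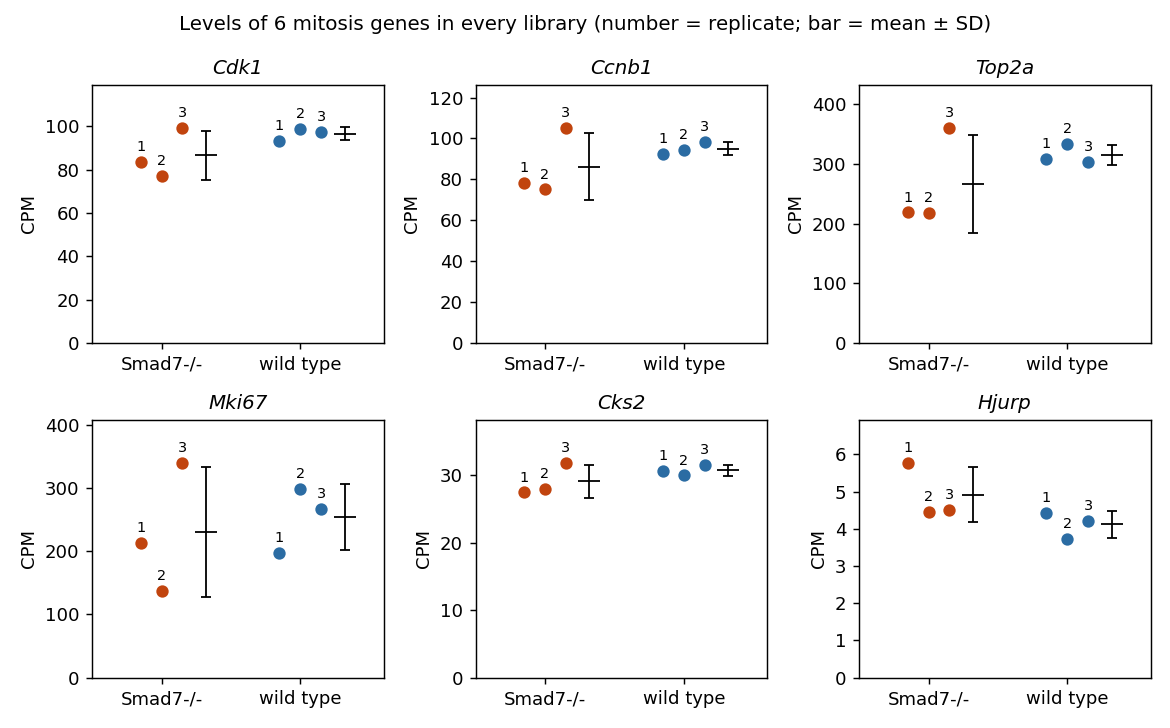
CPM (y axis, from 0) of Cdk1, Ccnb1, Top2a, Mki67, Cks2 and Hjurp in each of 3 Smad7-/- libraries (orange) and 3 wild-type libraries (blue), with replicate numbers and the mean ± SD of each group in black. Smad7-/- library 3 is the highest of the 6 libraries in every panel but that of Hjurp, where Smad7-/- library 1 is.

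In a comparison that called 0.0262% of all tested genes, none of the 9 genes of the mitotic kinases and the chromosomal passenger complex passed. Smad7-/- library 1 or 2 was the lowest library for each, and the highest was Smad7-/- library 3, except for Gtse1, Aurkb and Cdca8, where it was wild-type library 2. Plk1, which drives centrosome maturation and mitotic exit, had 32.3, 34.9 and 45.8 CPM in Smad7-/-, against 41.2, 44.1 and 39.8 CPM in wild type (-0.15 ± 0.13). The lowest wild-type library still lay above 2 of the 3 Smad7-/- libraries. Aurkb, the kinase that corrects faulty spindle attachments, had 37.1, 36.4 and 48.6 CPM in Smad7-/- and 43.8, 49.7 and 41.7 CPM in wild type (-0.15 ± 0.13). Its partners Birc5 (survivin) and Cdca8 (borealin), which hold the complex at the centromere, stood at -0.15 ± 0.11 and -0.18 ± 0.13. Aurka, the spindle-pole Aurora kinase, and Tpx2, which activates it, were at -0.13 ± 0.14 and -0.18 ± 0.13. Nek2, a kinase that splits the centrosomes, Gtse1, a microtubule-binding protein, and Cdca3, a substrate-recruiting partner of a ubiquitin ligase, ranged from -0.12 to -0.09. All 9 were below 0.

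Kinetochore, centromere and checkpoint genes included the only member with a positive change, Hjurp. Ndc80, a subunit of the microtubule-binding kinetochore complex, had 23.8, 23.5 and 30.2 CPM in Smad7-/- and 25.9, 28.4 and 25.9 CPM in wild type (-0.05 ± 0.12), and its partner Nuf2 was at -0.16 ± 0.15. Cenpa, the histone H3 variant of centromeres, was at -0.19 ± 0.11. Cenpf, a large protein of the outer kinetochore, had 71.8, 55.1 and 113 CPM in Smad7-/-, against 76.1, 104 and 96.9 CPM in wild type (-0.21 ± 0.25). Cenpe, the kinetochore kinesin, had 42.8, 30.9 and 62.7 CPM in Smad7-/-, against 38.3, 61.3 and 53.99 CPM in wild type (-0.17 ± 0.27). In both, Smad7-/- library 2 was the lowest of the 6 and the highest library was 2.06 times the lowest for Cenpf and 2.03 times for Cenpe. Hjurp, the chaperone that loads CENP-A onto centromeres, was the only member above 0 and the only one whose groups did not overlap. It had 5.78, 4.46 and 4.51 CPM in Smad7-/- and 4.43, 3.72 and 4.21 CPM in wild type (log2 0.25 ± 0.19 SE; edgeR adjusted p = 0.999), and it was the least abundant member. Without Smad7-/- library 1, its highest, the change was 0.12, and with the principal component covariate 0.14. Of the checkpoint kinases, Bub1 had 28.8, 32.96 and 45.2 CPM in Smad7-/- and 39.2, 42.2 and 38.6 CPM in wild type (-0.16 ± 0.15), and Ttk was at -0.17 ± 0.18.

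Partners of the anaphase-promoting complex, which ends mitosis, did not pass the test either (0.0262% of all tested genes did). Cdc20, its activator at the metaphase to anaphase transition, had 61.2, 57.7 and 76.9 CPM in Smad7-/-, against 67.1, 74.2 and 67.9 CPM in wild type (-0.09 ± 0.12). Ube2c, the ubiquitin-conjugating enzyme that works with the complex, was at -0.21 ± 0.16, and 22.8% of its exon bases overlap Tnnc2 on the opposite strand, from which reads counted without strand cannot be told apart. G2e3, a ubiquitin ligase named for its G2/M expression, was at -0.11 ± 0.15.

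Genes of chromosome structure held the most variable and the steadiest members. Mki67 had 213, 137 and 339.9 CPM in Smad7-/-, against 197, 299 and 267 CPM in wild type (-0.14 ± 0.32), the widest spread of the 53. Its highest library was 2.49 times its lowest, and both were Smad7-/- libraries. Top2a, the topoisomerase that untangles sister chromatids, had 219, 219 and 360.5 CPM in Smad7-/-, against 309, 334 and 303 CPM in wild type (-0.25 ± 0.18). Smad7-/- libraries 1 and 2 lay below and library 3 above every wild-type library. The condensin genes Smc4 and Ncapd2, whose products compact chromosomes, were at -0.21 ± 0.14 and -0.17 ± 0.15, and Cdca2, a recruiter of phosphatase to chromatin at mitotic exit, at -0.13 ± 0.12. Ctcf, an insulator protein made throughout the cell cycle, had 133, 123 and 141 CPM in Smad7-/- and 140.5, 139.997 and 128 CPM in wild type (-0.04 ± 0.09). Its highest library was 1.14 times its lowest, the narrowest spread of the 53. Anp32e, a histone chaperone, averaged 277 ± 15.2 CPM in Smad7-/- and 299 ± 22.98 CPM in wild type (SD, n = 3; -0.11 ± 0.09).

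Spindle motors and microtubule proteins were the largest group, with all 12 below 0 and a median of -0.14. Kif11, the kinesin that pushes the spindle poles apart, had 83.9, 69.8 and 128 CPM in Smad7-/-, against 99.5, 110.1 and 100.04 CPM in wild type (-0.14 ± 0.20). Smad7-/- libraries 1 and 2 were again the lowest and library 3 the highest. Hmmr, a spindle assembly factor, had 25.1, 25.3 and 36.99 CPM in Smad7-/- and 28.2, 37.96 and 36.1 CPM in wild type (-0.22 ± 0.17). Nearest to 0 were Ckap2, a microtubule stabiliser, and Psrc1, a partner of spindle microtubules. Ckap2 had 31.6, 26.3 and 36.8 CPM in Smad7-/- and 29.6, 32.8 and 34.1 CPM in wild type (-0.03 ± 0.13), and Psrc1 13.4, 12.1 and 15.4 CPM in Smad7-/- and 10.8, 14.7 and 16.5 CPM in wild type (-0.04 ± 0.17). The other 8 ranged from -0.21 for Kif2c, a microtubule-depolymerising kinesin, and Ckap5 to -0.06 for Dlgap5, a kinetochore fibre protein. Tubb4b, a beta-tubulin, was the most abundant member per exon length, at 153 ± 14.3 CPM per kilobase in Smad7-/- and 164 ± 6.46 in wild type (SD, n = 3); its coding sequence is close to that of other beta-tubulins, so its reads may be split among them.

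Cytokinesis genes spanned the lowest change and one close to 0. Ect2, which activates RhoA at the cleavage furrow, had 43.2, 40.7 and 69.4 CPM in Smad7-/-, against 60.4, 70.9 and 60.2 CPM in wild type. At -0.32 ± 0.19 (edgeR adjusted p = 0.999) this was the lowest fitted change of the 53. It was -0.21, -0.18 and -0.61 without Smad7-/- library 1, 2 and 3 in turn, and -0.16 with the principal component covariate. Kif23, the central spindle kinesin, had 47.9, 41.9 and 64.8 CPM in Smad7-/- and 50.98, 58.4 and 54.9 CPM in wild type (-0.09 ± 0.15). Gas2l3, which links actin and microtubules, had 12.9, 15.4 and 19.4 CPM in Smad7-/- and 19.001, 15.9 and 13.3 CPM in wild type (-0.01 ± 0.18), so its 2 groups covered nearly the same range. Anln, a scaffold of the contractile ring, was at -0.18 ± 0.19. Of the nuclear envelope genes, Lbr, the lamin B receptor, had 83.2, 74.96 and 83.1 CPM in Smad7-/- and 86.3, 89.8 and 75.4 CPM in wild type (-0.06 ± 0.10). Tmpo, a lamina-associated protein, and Rangap1, which ends the RAN cycle, stood at -0.10 ± 0.11 and -0.12 ± 0.11.

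**Figure D4:**
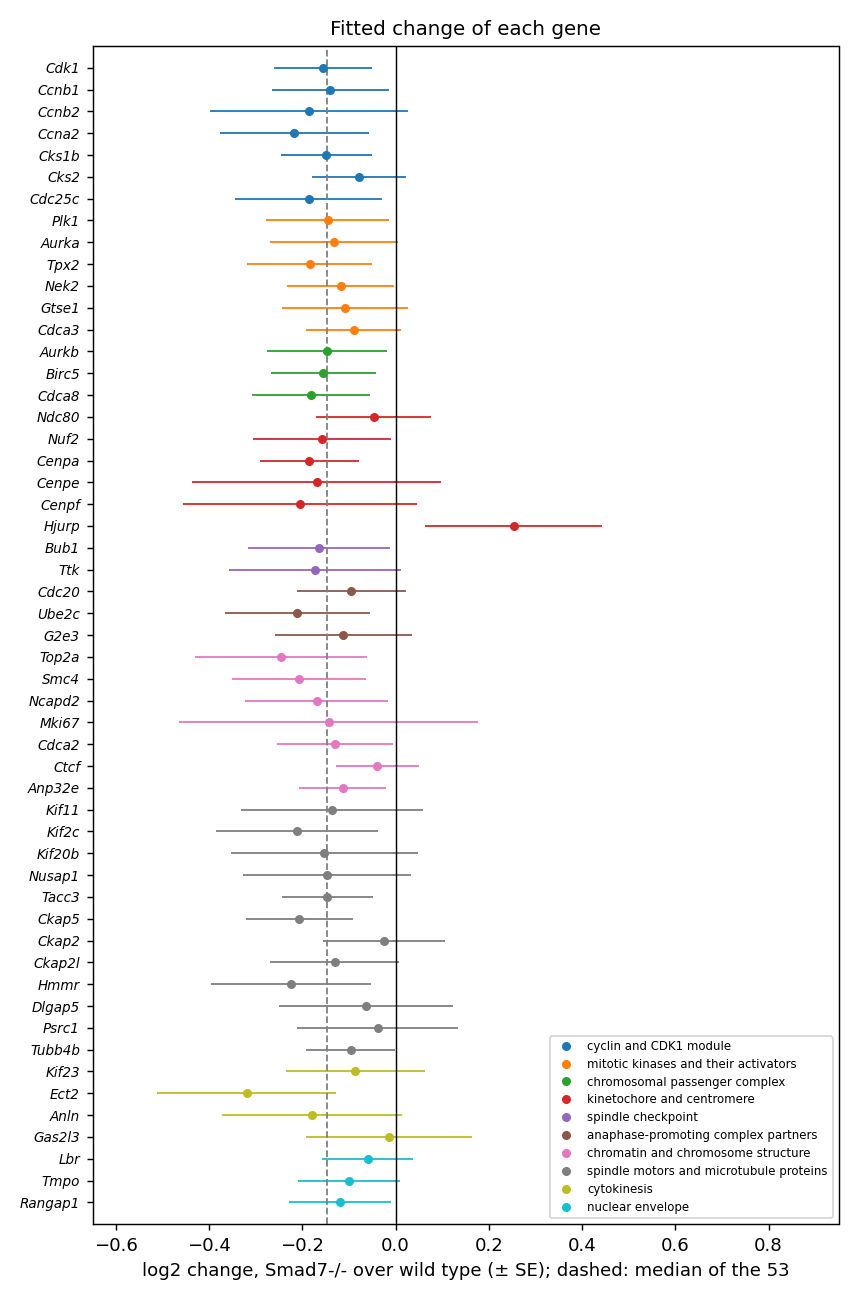
Fitted log2 change of each of the 53 genes, Smad7-/- over wild type (x axis, points, with bars of 1 SE), coloured by role; the dashed line marks the median of -0.15. All points but Hjurp lie left of 0, and the bars of the steadiest genes, such as Ctcf, are the shortest.

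Levels differed widely among members once scaled to exon length. This length joins the exons of all annotated transcripts of a gene, so it can far exceed a single transcript. For Tmpo it was 10998 bases, against 3772 in its longest coding transcript, and for Top2a 9013 against 5221. The order below depends on this length and was not repeated with another. In Smad7-/- tooth germs the order ran from Tubb4b, Anp32e (77.6 ± 4.25 CPM per kilobase), Cks1b (47.9 ± 4.10), Cks2 (42.0 ± 3.49) and Cdc20 (34.9 ± 5.48) down to Kif20b (3.18 ± 0.916), Gas2l3 (2.26 ± 0.463) and Hjurp (0.590 ± 0.0894). Wild type had 83.97 ± 6.44, 53.1 ± 3.27, 44.4 ± 1.12 and 37.3 ± 2.09 CPM per kilobase for Anp32e, Cks1b, Cks2 and Cdc20, and 3.54 ± 0.542, 2.29 ± 0.403 and 0.495 ± 0.0435 for Kif20b, Gas2l3 and Hjurp. In the middle of the order neighbours did not separate, as for Cdk1 (17.6 ± 2.30 CPM per kilobase in Smad7-/-, 19.6 ± 0.597 in wild type) and Plk1 (17.1 ± 3.26 in Smad7-/-, 18.97 ± 0.990 in wild type).

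The 53 genes varied more among Smad7-/- libraries than among wild-type libraries. Their median SD of log2 CPM was 0.26 among the 3 Smad7-/- libraries and 0.11 among the 3 wild-type libraries, and 49 of 53 (92.5%) had the larger SD in Smad7-/-. Among the 11233 tested genes that averaged 5 CPM or more the medians were 0.13 in Smad7-/- and 0.12 in wild type, and 53.4% had the larger SD in Smad7-/-. The members share the same 6 libraries, so this is a single difference seen in many genes, and it was not tested. Per library, the median deviation of the members from their mean over 6 libraries was -0.20, -0.23 and 0.22 in Smad7-/- and 0.02, 0.18 and 0.08 in wild type, on the log2 scale. Summed, they had 3668, 3557 and 4904 CPM in Smad7-/- and 4274, 4751 and 4407 CPM in wild type.

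Other cell-cycle lists were set beside these values. Over all tested genes edgeR called 0.0262% and DESeq2 0.351%, and 5.14% had an unadjusted p under 0.05 in edgeR. The 70 other mitosis genes deviated by -0.21, -0.23 and 0.22 in Smad7-/- and by 0.00, 0.16 and 0.06 in wild type, close to the 53 in each library. Of these 62 were below 0, with a median log2 change of -0.14, and none passed in edgeR or DESeq2. The 2 with an unadjusted p under 0.05 were Spc24, a kinetochore subunit, at -0.46 ± 0.20, and Kifc1, a minus-end kinesin, at -0.41 ± 0.18 (edgeR adjusted p = 0.938 and 0.963). The 44 S phase genes gave the libraries another order, with deviations of -0.17, -0.07 and 0.11 in Smad7-/- and of 0.17, 0.09 and -0.11 in wild type, and wild-type library 1 was their highest library for 24 genes. None passed in edgeR or DESeq2, and 1 reached an unadjusted p under 0.05, Rrm2, a ribonucleotide reductase subunit, at -0.31 ± 0.12 (edgeR adjusted p = 0.900). Next was Uhrf1, which maintains DNA methylation behind the fork, at -0.27 ± 0.14. The 13 regulators of late cell-cycle transcription had a median log2 change of -0.02. Their smallest p values belonged to Mybl2, the B-MYB gene, at -0.13 ± 0.16 and Rbbp4, the MuvB histone-binding subunit, at -0.09 ± 0.10. The 15 anaphase-promoting complex genes had a median of -0.04, with Anapc1, its largest subunit, at -0.13 ± 0.11 and Anapc13, a small subunit, at -0.16 ± 0.14. In both lists 0 genes passed in edgeR or DESeq2, and 0 reached an unadjusted p under 0.05. Among 16 genes of the G1 cyclins, their kinases and CDK inhibitors, 1 passed in edgeR. Ccnd1, a cyclin of G1 progression, fell to 9.90 ± 1.40 CPM in Smad7-/-, against 21.4 ± 0.978 CPM in wild type (SD, n = 3; log2 -1.11 ± 0.14 SE; edgeR adjusted p = 0.0339). That call ended when any 1 of the 6 libraries was left out (edgeR adjusted p = 0.0738 to 0.261), with sex as a covariate (0.115) and among genes averaging 5 CPM or more (0.0604). Ccnd1 had 9.50, 11.5 and 8.73 CPM in Smad7-/- and 22.1, 21.7 and 20.3 CPM in wild type. It was low in all 3 Smad7-/- libraries, including library 3, where the mitosis genes were high. DESeq2 called 3 genes of this list, Ccnd1 and Cdk4, a kinase partner of D-type cyclins, lower and Cdkn1a, the CDK inhibitor p21, higher. Cdkn1a averaged 28.8 ± 7.09 CPM in Smad7-/- and 16.8 ± 0.557 CPM in wild type (SD, n = 3; log2 0.78 ± 0.17 SE; adjusted p = 0.00834 in DESeq2 and 0.536 in edgeR). Cdk4 averaged 10.4 ± 3.17 CPM in Smad7-/- and 18.9 ± 1.61 CPM in wild type (log2 -0.86 ± 0.20 SE; adjusted p = 0.0112 in DESeq2 and 0.586 in edgeR). At an unadjusted p under 0.05 in edgeR, 3 genes of the list were higher (Cdkn1a, Cdkn2b and Ccnd3) and 2 lower (Ccnd1 and Cdk4); apart from Ccnd1, these were named after their values were seen.

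**Figure D5:**
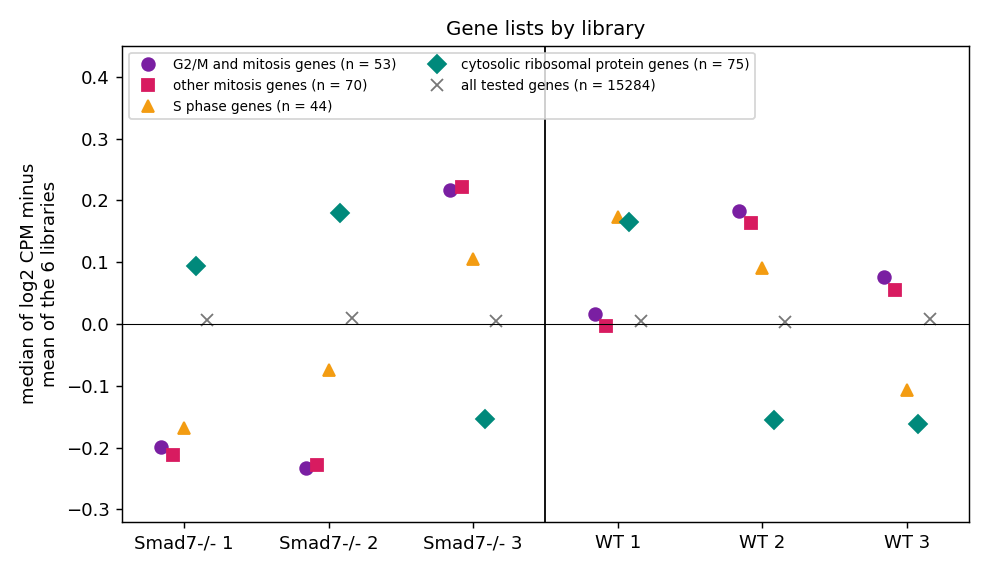
Median deviation of log2 CPM from the mean of the 6 libraries (y axis) for 4 gene lists and all tested genes in the 3 Smad7-/- and 3 wild-type (WT) libraries (x axis). The 53 G2/M and mitosis genes and the 70 other mitosis genes lie together near -0.2 in Smad7-/- libraries 1 and 2 and at 0.22 in library 3, while ribosomal protein genes take the opposite sign in 5 of the 6 libraries.

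Other gene lists also differed among the libraries. Cytosolic ribosomal protein genes deviated by 0.09, 0.18 and -0.15 in Smad7-/- and by 0.16, -0.15 and -0.16 in wild type, over 75 genes. Macrophage markers (10 of 10 at 1 CPM or more) summed to 201 to 219 CPM in Smad7-/- and 118 to 163 CPM in wild type, and endothelial markers (8 of 8) to 374 to 412 CPM in Smad7-/- and 266 to 401 CPM in wild type. Red cell markers (4 of 9, with 4 at 0 in all libraries) summed to 45.01 to 55.5 CPM in Smad7-/- and 69.3 to 95.2 CPM in wild type. Skeletal muscle markers (4 of 12) reached at most 10.4 CPM in Smad7-/- and 12.9 CPM in wild type. Neuronal markers (2 of 10) summed to 279 to 349.6 CPM in Smad7-/- and 322 to 362 CPM in wild type. Markers of keratinised epithelium (5 of 7) summed to 85.6 to 96.6 CPM in Smad7-/- and 84.9 to 104 CPM in wild type. The part of these markers and of the ribosomal protein genes in the result was not tested.

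Exon length and base composition also moved with the deviations of some libraries. Members had a median GC content of 46.4%, against 50.3% for all tested genes, and a median exon length of 4863 bases, against 4335. Over the 53 genes, the deviation in Smad7-/- library 2 had a Spearman rho of 0.47 with GC content and -0.48 with exon length, and that in Smad7-/- library 3 one of -0.46 and 0.40. In Smad7-/- library 1, where the members were also low, rho was 0.09 with GC content and 0.05 with exon length. In the wild-type libraries it lay between -0.22 and 0.03 for GC content and between -0.18 and 0.29 for length. Over 11121 other genes averaging 5 CPM or more, rho with GC content and length was 0.07 and 0.06 in Smad7-/- library 1. It was 0.23 and -0.41 in Smad7-/- library 2, and -0.21 and 0.32 in library 3. In wild type it lay between -0.07 and 0.01 for GC content and between -0.12 and 0.12 for length. Genes are not independent replicates, and all points of a library share its depth. A smooth on GC content and length, fitted to genes outside the cell-cycle lists, was then subtracted. The median deviations of the members were then -0.20, -0.25 and 0.23 in Smad7-/- and -0.01, 0.18 and 0.08 in wild type. Over the members the smooth itself had a median between -0.005 and 0.02 in each library, so its subtraction could shift these medians little. The part of GC content and length in the library pattern was not tested.

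Among 15073 tested genes outside the cell-cycle lists, the profiles over 6 libraries nearest to the members' mean were those of Ncoa7, Obsl1, 4933430I17Rik, Tenm3 and Ibtk, at root mean square distances of 0.03 to 0.04 on the log2 scale.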

How the data were processed

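Per the submitters' processing notes the tools were HISAT2, featureCounts and DESeq2 on mm10, and the deposited files hold raw counts per gene symbol, 1 file per library; strand settings are not given in the sources used here. Counts were tested with edgeR 4.0.16 in R 4.3.3 (genes kept by filterByExpr with a minimum count of 10 and total of 15, TMM scaling, robust quasi-likelihood F-test, Benjamini-Hochberg adjustment over all 15284 tested genes, threshold 0.05), with DESeq2 1.42.0 and limma 3.58.1 voom as alternatives. CPM use TMM-scaled totals, SE is the absolute log2 change over the root of F, and deviations are of log2 CPM with a prior count of 2. Gene symbols damaged into dates, 27 in number, stayed as deposited. Exon length, GC content and overlaps come from GENCODE M21.

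The members, gene lists and rules were chosen with earlier results of these data known. Values in every library were given for the 4 members with the largest and the 4 with the smallest change, the 4 with the widest and the 2 with the narrowest range, and 1 or more lead genes per role, and also for Ccnb2, whose promoter is printed. In other cell-cycle lists, genes past the threshold or the 2 with the smallest p were named.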

Additional observations from a re-analysis of the deposited data

How the results depend on the processing

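No member was called under any of the 17 alternatives. The median log2 change of the members stayed below 0 in all of them, between -0.308 and -0.0704 with 1 library left out, and at -0.0269 with the principal component covariate. Over all tested genes, 4 were called in edgeR, against 59 in DESeq2, 2 among genes averaging 5 CPM or more, and 1 to 7 with 1 library left out. Replicate numbers did not pair the libraries (correlations of deviations 0.169, -0.0339 and 0.0927), and with the replicate block 0 members and 4 genes in all were called, with a member median of -0.161. With sex as a covariate the median was -0.162, and with GC content and length offsets, chosen after seeing the data, -0.139.

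Of 390 values of 23 named members 27 reversed, all of them changes that had not passed the test, and the cause was not tested. With the principal component covariate these were Psrc1 (0.166), Mki67 (0.148), Cenpe (0.125), Ckap2 (0.0799), Kif23 (0.0506), Ndc80 (0.0440), Cenpf (0.0437), Kif11 (0.00981), Gas2l3 (0.00367) and Cdc20 (0.000765). Gas2l3 was also above 0 in limma-voom (0.00226) and with the offsets (0.00463). With 1 library left out the log2 change ranged from -0.607 to -0.176 for Ect2 and 0.123 to 0.318 for Hjurp, neither of which reversed. Among those that did, it ranged from -0.539 to 0.126 for Mki67, -0.544 to 0.00578 for Cenpf, -0.476 to 0.0474 for Cenpe, -0.427 to 0.0402 for Kif11, -0.288 to 0.0446 for Kif23, -0.199 to 0.0959 for Psrc1, -0.183 to 0.121 for Gas2l3, -0.176 to 0.0186 for Ndc80, -0.152 to 0.0925 for Ckap2 and -0.0861 to 0.0126 for Ctcf.

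Every member had at least 184 counts in each library. With 3 libraries a group, the SE of the members' log2 changes was 0.09 to 0.32.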
